A study of Homo sapiens with 4 samples.

Results

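The plasminogen activators PLAU and PLAT, the urokinase receptor gene PLAUR and the inhibitor gene SERPINE2 were followed in SK-LMS-1, a human cell line labelled as a uterine leiomyosarcoma. They were taken by gene symbol from the deposited tables of read counts and TPM, and all 4 were found among 19381 genes. RNA was sequenced in 4 libraries, 2 from untreated cells and 2 from cells exposed for 48 h to 2-D08 at 50 µM. 2-D08 is a flavone that inhibits attachment of the protein modifier SUMO. Per the labels the reference cells were untreated, and no vehicle is named. All libraries come from this 1 cell line. The labels do not tell whether replicates were grown apart, so the p-values rest on a spread between libraries that may be technical.

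Plasminogen is a circulating zymogen that is cut to plasmin, a serine protease that degrades fibrin and matrix proteins and activates other proteases. The cut is made by urokinase, encoded by PLAU, or by tissue-type activator, encoded by PLAT. Urokinase works mainly at the cell surface, held by its receptor uPAR, which PLAUR encodes, whereas tissue-type activator works best on fibrin. Both are inhibited by serpins, protease inhibitors that trap their target in a covalent complex. SERPINE2 encodes the serpin protease nexin-1, which also inhibits thrombin and is active on surfaces that carry heparin-like chains. Tumour and stromal cells are known to release these proteins.

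Exposed cells held more PLAU, PLAUR and SERPINE2 transcript than untreated cells, and PLAT did not pass the test. The 3 rises were 1.67-fold for PLAU, 2.15-fold for PLAUR and 2.39-fold for SERPINE2. Of the 4 genes 3 were called higher and 0 lower, where a call is an adjusted p under 0.05 by edgeR's quasi-likelihood test over 12906 genes. Over all genes tested 33.9% were called, 17.1% higher and 16.9% lower. In the same 3 genes the groups did not overlap, with both exposed libraries above both untreated ones. Over all genes tested 67.5% did not overlap, 33.8% with the exposed libraries higher.

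To show what precedes these genes, stretches upstream of starts listed in RefSeq (GRCh38.p14) are given 5′ to 3′ on the gene's strand. Starts were found for 3 of the 4 genes, with 2 for PLAU, 1 for PLAUR and 2 for SERPINE2. Gene-level counts do not say which start was used. Capitals mark matches on either strand to 5 motifs: AP-1 (TGANTCA), the GC box (GGGCGG), the CCAAT box (CCAAT), the TATA box (TATAAA) and the E-box (CACGTG). The motifs were spelled as given, chosen with the sequences known, and a match describes letters, not a bound site. The SERPINE2 stretch is shown for its repeated structure, the PLAU stretch for its row of GC boxes and the short PLAUR stretch for its AP-1 match.
SERPINE2, chr2:224031479-224031728, minus strand: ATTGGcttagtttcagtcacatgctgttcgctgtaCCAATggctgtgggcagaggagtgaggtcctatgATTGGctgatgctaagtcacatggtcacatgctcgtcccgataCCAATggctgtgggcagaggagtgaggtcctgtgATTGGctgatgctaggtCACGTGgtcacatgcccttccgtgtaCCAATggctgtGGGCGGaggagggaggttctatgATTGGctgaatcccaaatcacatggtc
PLAU, chr10:73910882-73911103, plus strand: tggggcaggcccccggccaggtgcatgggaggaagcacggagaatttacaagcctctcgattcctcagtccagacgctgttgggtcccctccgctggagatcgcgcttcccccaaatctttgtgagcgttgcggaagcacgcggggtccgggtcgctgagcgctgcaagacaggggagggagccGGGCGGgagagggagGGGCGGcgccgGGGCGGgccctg
PLAUR, chr19:43670338-43670366, minus strand: tcacaactccaTGAGTCAgggccgagcca

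The SERPINE2 stretch covers the 250 bases before 1 of its 2 listed starts, within the gene and downstream of the other start. It held 7 CCAAT box matches, a number reached by 7 of 35116 upstream windows of the same length (0.0199%), itself among them. Shifted by 77 bases against itself, it was identical at 127 of 173 positions (73.4%), the highest share among shifts of 20 to 125 bases. Matches spelled CCAAT began at -215, -138 and -61, in steps of 77 bases. Matches spelled ATTGG, its other strand, began at -181, -104 and -27 in the same steps. The 7 matches are therefore not separate occurrences, and with the motif chosen knowing the sequence their rarity is a description only. The stretch also held 1 E-box, found in 6.34% of windows, and 1 GC box, found in 42.6%. The window before the other SERPINE2 start held 2 GC boxes. The PLAU window held 3 GC boxes, and 13.9% of windows held at least as many. The 28 bases nearest its start are annotated as untranslated region in GENCODE release 29 and were left out of print. The window before the other PLAU start held 1 CCAAT box. The AP-1 match upstream of PLAUR lay at positions -186 to -180 from its start, inside an untranslated region of a longer GENCODE transcript, and 6.57% of windows held such a match. Only PLAUR held an AP-1 match among the 5 windows of these genes, and none of the 5 held a TATAAA match.

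Among the proteases, PLAU (ENSG00000122861, chromosome 10, 73909177 to 73917497, plus strand, GRCh38) gave the most transcript in every library. Levels between libraries are given as CPM, read counts scaled to library size with TMM factors. PLAU stood at 188 and 173 CPM in the untreated libraries and at 338 and 266 CPM in the exposed ones. Both exposed libraries lay above both untreated ones, and the exposed pair was further apart than the untreated pair. The means were 181 ± 10.4 and 302 ± 51.2 CPM (SD, n = 2 each). The log2 fold change was 0.74 ± 0.11 (SE; 95% interval 0.50 to 0.98, adjusted p = 0.000242 by edgeR), and 7.04% of tested genes rose more. The annotated gene C10orf55 covers 7529 bases of PLAU on the opposite strand and is not analysed here. How strand was handled in counting is not given in the sources used here, so reads of that gene and of PLAU cannot be told apart.

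PLAT, the gene of tissue-type activator (ENSG00000104368, chromosome 8, 42175233 to 42207724, minus strand), lay at 101 and 97.1 CPM in untreated cells. In exposed cells it lay at 101 and 85.6 CPM. The groups overlapped, since exposed replicate 1 fell between the untreated libraries. The means were 99.3 ± 3.09 and 93.2 ± 10.6 CPM (SD, n = 2 each). The log2 fold change was -0.10 ± 0.10 (SE; 95% interval -0.31 to 0.12, adjusted p = 0.484 by edgeR), an interval that leaves room for a small change either way. Leaving out 1 exposed library moved this value either way. Without exposed replicate 1 the log2 fold change was -0.22, and without exposed replicate 2 it was 0.01. Such a fit keeps 1 exposed library, so its within-group spread comes from the untreated pair alone and no p-value is given for it. Among alternatives that kept 2 libraries per group, the adjusted p ran from 0.307 to 0.641 (both by edgeR).

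**Figure D1:**
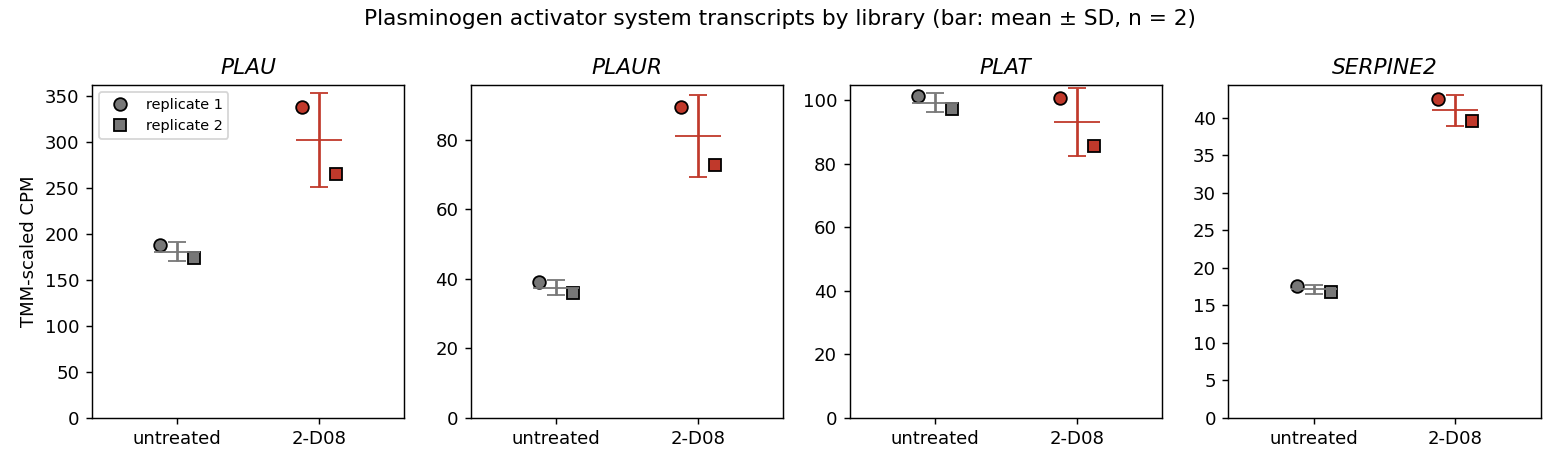
TMM-scaled CPM of PLAU, PLAUR, PLAT and SERPINE2 in untreated and 2-D08-exposed SK-LMS-1 cells, with a separate linear axis from 0 for each gene. Circles and squares are replicates 1 and 2, and bars are the mean ± SD of 2 libraries. PLAU, PLAUR and SERPINE2 lie higher in both exposed libraries, and PLAT overlaps between groups.

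PLAUR, the gene of the urokinase receptor (ENSG00000011422, chromosome 19, 43646095 to 43670547, minus strand), lay at 39.0 and 35.8 CPM in untreated cells. It reached 89.4 and 72.6 CPM after exposure. The lower exposed library was still 1.86-fold above the higher untreated one. The means were 37.4 ± 2.21 and 81.0 ± 11.8 CPM (SD, n = 2 each), and the log2 fold change was 1.11 ± 0.12 (SE; 95% interval 0.85 to 1.36, adjusted p = 1.2e-05 by edgeR). Of tested genes 3.48% rose more. The annotated RNA gene RN7SL368P overlaps PLAUR by 277 bases on the same strand and has no counts of its own. Whether its reads were counted to PLAUR was not tested.

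SERPINE2 (ENSG00000135919, chromosome 2, 223975112 to 224039319, minus strand), the inhibitor, had the lowest counts of the 4 and the largest fold. It lay at 17.5 and 16.7 CPM in untreated cells and at 42.5 and 39.5 CPM in exposed cells. Both pairs of replicates were close, within 1.05-fold untreated and 1.07-fold exposed. The means were 17.1 ± 0.58 and 41.0 ± 2.06 CPM (SD, n = 2 each), and the log2 fold change was 1.25 ± 0.12 (SE; 95% interval 0.99 to 1.52, adjusted p = 5.37e-06 by edgeR). Of tested genes 2.65% rose more. Its smallest count, 276 reads, has an exact Poisson interval (95%) of 244 to 311 reads, which covers counting error only.

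In exposed replicate 1 all 4 genes were higher than in exposed replicate 2, by 1.27-fold for PLAU, 1.23-fold for PLAUR, 1.18-fold for PLAT and 1.07-fold for SERPINE2. Over all genes tested 50.3% were higher in exposed replicate 1, and the median gap between the 2 exposed libraries was 1.12-fold among the 10502 genes averaging 5 CPM or more. PLAU, PLAUR and PLAT thus differed more between the exposed libraries than the median gene did. All 4 genes were also higher in untreated replicate 1 than in untreated replicate 2. The gaps were 1.09-fold for PLAU and for PLAUR, 1.04-fold for PLAT and 1.05-fold for SERPINE2. Over all genes tested 49.9% were higher in untreated replicate 1, and the median gap between the untreated libraries was 1.06-fold among the same 10502 genes. Differences between the fold changes of PLAU, PLAUR and SERPINE2 were not tested.

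The deposited totals ran from 14796702 to 31300635 counts per library. In untreated replicate 1 and exposed replicate 2, 89% and 88.8% of nonzero counts were even numbers, against 48.4% and 47.9% in the other libraries. Reads may have been counted more than once in the first 2, which was not tested. Compared within the even-count pair, the exposed library differed from the untreated one on the log2 CPM scale by 0.50 for PLAU, 0.90 for PLAUR, -0.24 for PLAT and 1.17 for SERPINE2. Within the other pair the differences were 0.96, 1.32, 0.05 and 1.35 in the same order, so PLAU, PLAUR and SERPINE2 were higher in both pairs and PLAT took opposite signs. Each pair has 1 library per group and allows no test.

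Levels of different genes were compared on the deposited TPM scale, which corrects for transcript length. PLAU stood at 119 and 107 TPM untreated and at 214 and 155 TPM exposed. PLAT stood at 59.2 and 50.5 TPM, then at 53.5 and 41.6 TPM. PLAUR stood at 47.5 and 43.6 TPM, then at 107 and 84.3 TPM. SERPINE2 stood at 12.9 and 10.4 TPM, then at 29.5 and 24.2 TPM. PLAU was the most abundant and SERPINE2 the least in all 4 libraries, while the places between changed hands: PLAT lay above PLAUR in both untreated libraries and below it in both exposed ones. The untreated gap between PLAT and PLAUR was small, 54.8 ± 6.12 against 45.5 ± 2.76 TPM (SD, n = 2), and the change of order was not tested.

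Ratios taken within a library cancel its scaling. PLAU to PLAT, the ratio of the 2 activators, was 2.06 ± 0.0811 in untreated and 3.86 ± 0.185 in exposed libraries (SD, n = 2 each). PLAUR to PLAT went from 0.832 ± 0.0425 to 2.01 ± 0.0263. SERPINE2 to PLAT went from 0.212 ± 0.009 to 0.567 ± 0.0223. PLAUR to PLAU, the receptor against its ligand, went from 0.403 ± 0.00477 to 0.521 ± 0.0317. PLAU to SERPINE2, the protease against 1 of its inhibitors, went from 9.76 ± 0.798 to 6.83 ± 0.596. In each of these 5 ratios the groups did not overlap. The share for single genes on the CPM scale was 67.5%, and none was computed for ratios. The 5 ratios are built from the same 4 genes, so they are not separate observations. These are ratios of RNA levels and were not tested, and in such samples more RNA per cell and more expressing cells cannot be told apart. SERPINB2, the gene of another inhibitor, lay at 9.5 to 15.2 times the TPM of PLAU over the 4 libraries.

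**Figure D2:**
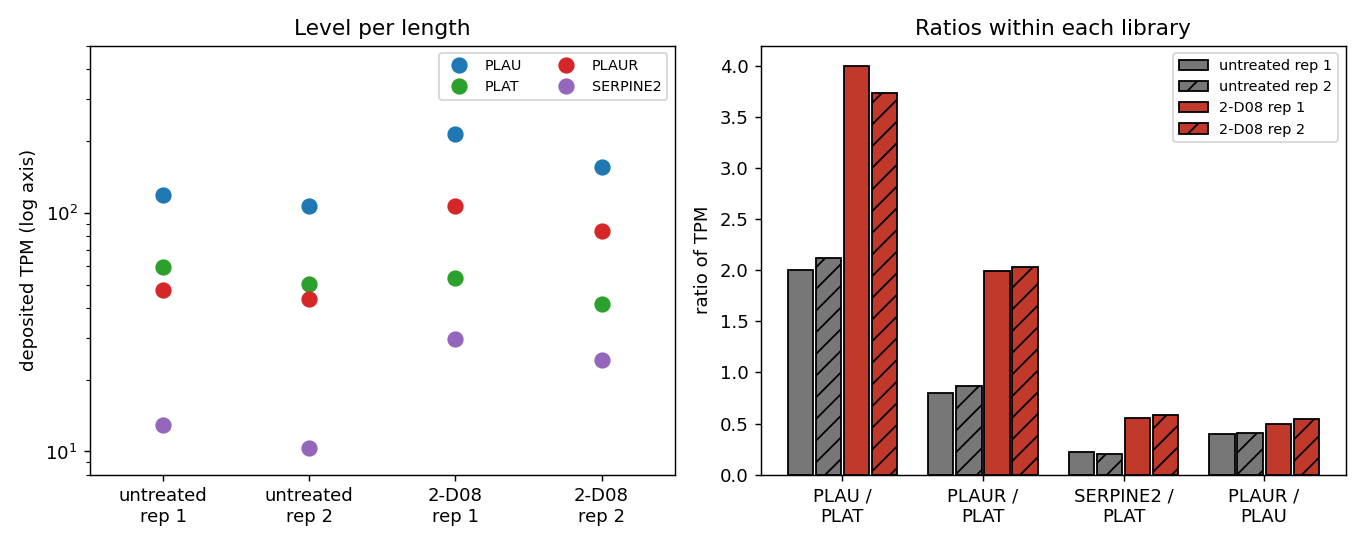
Left, deposited TPM of the 4 genes in each library on a log axis; right, ratios of TPM within each library, with bars from 0, untreated in grey and exposed in red, replicate 2 hatched. PLAUR passes PLAT in both exposed libraries, and PLAU to PLAT is 2.06 untreated and 3.86 exposed on average.

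Other genes of the system were taken from a list of 41, of which all had a row and 28 had enough counts to be tested. Of these 4 were higher, 10 lower and 14 did not pass, with a median log2 fold change of -0.03 against -0.003 over all genes tested, of which 33.9% were called. The count of 14 called genes was 8 without untreated replicate 1 and 8 with limma on each TPM scale, log2(TPM + 1) and log2(TPM + 0.1). The 10 lower genes were 5 without untreated replicate 1, 6 without untreated replicate 2, 5 on each TPM scale, and 6 (with 5 higher) when the even-count libraries were taken as a block, a setting chosen after seeing the data, so the split of 4 to 10 depends on these choices.

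Plasminogen itself is made mainly in liver. PLG had 0 and 0 reads in untreated and 3 and 2 reads in exposed cells, and VTN, which encodes the uPAR ligand vitronectin, had at most 1 read in any library. HPN, the hepsin gene, was at 0 in all 4 libraries. The plasmin inhibitor genes SERPINF2 and A2M had at most 8 and 4 reads.

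SERPINB2, which encodes plasminogen activator inhibitor type 2, was far more abundant than any of the 4 genes. It lay at 1441 and 1565 CPM in untreated cells and at 3339 and 3275 CPM in exposed cells, a log2 fold change of 1.14 ± 0.09 (SE; adjusted p = 6.78e-07 by edgeR). On the TPM scale it was 9.5 and 11.0 times PLAU in untreated libraries and 11.8 and 15.2 times PLAU in exposed ones. SERPINI1, the gene of neuroserpin, an inhibitor of tissue-type activator, lay at 3.92 ± 1.06 and 5.71 ± 0.192 CPM (SD, n = 2 each) and did not pass (adjusted p = 0.0805 by edgeR).

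Of 5 tested genes for plasminogen binding at the surface, 0 were higher and 2 lower, against 33.9% of all genes called. ANXA2, the annexin A2 chain, went from 2688 ± 8.44 to 2142 ± 37.2 CPM (SD, n = 2 each; log2 difference -0.33, adjusted p = 0.00758 by edgeR). ENO1, the enolase gene, had a log2 fold change of -0.28 (adjusted p = 0.0304 by edgeR). S100A10, the partner chain of annexin A2 (-0.13), the plasminogen receptor gene PLGRKT (0.32) and HMGB1 (0.15) did not pass. Both calls were lost without untreated replicate 1 (-0.32 for ANXA2 and -0.24 for ENO1) and without untreated replicate 2 (-0.33 and -0.31). The same held with the even-count libraries as a block (-0.33 and -0.28). ENO1 also lost its call on both TPM scales (-0.24 on each).

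Endocytic receptors remove complexes of activators with serpins from the surface. The list for this role also held co-receptors and LRPAP1. Of its 8 genes, all tested, 1 was higher and 3 lower, against 17.1% and 16.9% of all genes. LRP1, the main such receptor, went from 97.6 ± 14.8 to 54.9 ± 7.5 CPM (SD, n = 2 each; log2 difference -0.84 ± 0.12 SE, adjusted p = 0.000178 by edgeR), and this call was lost with log2(TPM + 1) (adjusted p = 0.0563) and log2(TPM + 0.1) (0.0548). VLDLR, a relative that also takes up these complexes, went from 45.3 ± 4.09 to 27.3 ± 0.636 CPM (-0.73 ± 0.12, adjusted p = 0.000347 by edgeR). MRC2, which encodes the uPAR-associated collagen receptor, went from 59.3 ± 7.71 to 38.5 ± 7.24 CPM (-0.64 ± 0.14, adjusted p = 0.0026 by edgeR), which no longer passed without untreated replicate 1 (-0.49) or on the same TPM scales (adjusted p of 0.159 and 0.157). LRP2 was the 1 called higher, at 14 and 6 reads untreated and 20 and 36 exposed. It lay under the level of 1 CPM set for named genes and is named because it completes the count. Its log2 fold change of 1.52 no longer passed when any 1 library was left out (1.38 to 1.75), with DESeq2 (1.56) or on the TPM scales (0.18 and 0.90).

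Some integrins bind vitronectin or fibronectin, and integrins act beside uPAR, which has no part inside the cell. Of 6 tested, 1 was higher and 3 lower, against 17.1% and 16.9% of all genes. ITGB3 went from 18.8 ± 1.64 to 33.4 ± 1.41 CPM (SD, n = 2 each; log2 difference 0.84 ± 0.13 SE, adjusted p = 0.000232 by edgeR). ITGA3 went from 284 ± 17.1 to 145.5 ± 16.3 CPM (-0.97 ± 0.10, adjusted p = 1.08e-05 by edgeR). ITGB1 and ITGA5 were also called lower (-0.31 for both). ITGB1 lost its call without untreated replicate 1 (-0.36) and without untreated replicate 2 (-0.27), as did ITGA5 (-0.23 and -0.38), which also lost it without exposed replicate 2 (-0.18). Neither passed on the TPM scales (-0.36 to -0.37 for ITGB1 and -0.28 on each for ITGA5). Neither passed with the even-count libraries as a block (-0.32 and -0.31). ITGA5 also lost its call with library size only (-0.30) and with thinned counts (-0.29). ITGAV, the partner of ITGB3, did not pass (0.02).

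Protease nexin-1 also acts on thrombin, whose receptor and trigger were measured. Of 4 tested genes on this side, 1 was higher and 1 lower, against 17.1% and 16.9% of all genes. F2R, the thrombin receptor gene, went from 127 ± 0.499 to 84.3 ± 2.25 CPM (SD, n = 2 each; log2 difference -0.59 ± 0.09 SE, adjusted p = 0.000242 by edgeR). F3, which encodes tissue factor, the starter of coagulation, went from 40.6 ± 1.78 to 73.0 ± 3.7 CPM (0.85 ± 0.10, adjusted p = 4.07e-05 by edgeR). F2RL1 (-0.17) and THBD (0.88) did not pass (adjusted p of 0.41 and 0.0638 by edgeR). F2, the thrombin gene, had at most 4 reads. HGF, a growth factor whose precursor is cut by serine proteases, went from 28.2 ± 3.31 to 10.1 ± 2.56 CPM (-1.45 ± 0.17, adjusted p = 3.7e-05 by edgeR), and its receptor gene MET did not pass (-0.02).

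**Figure D3:**
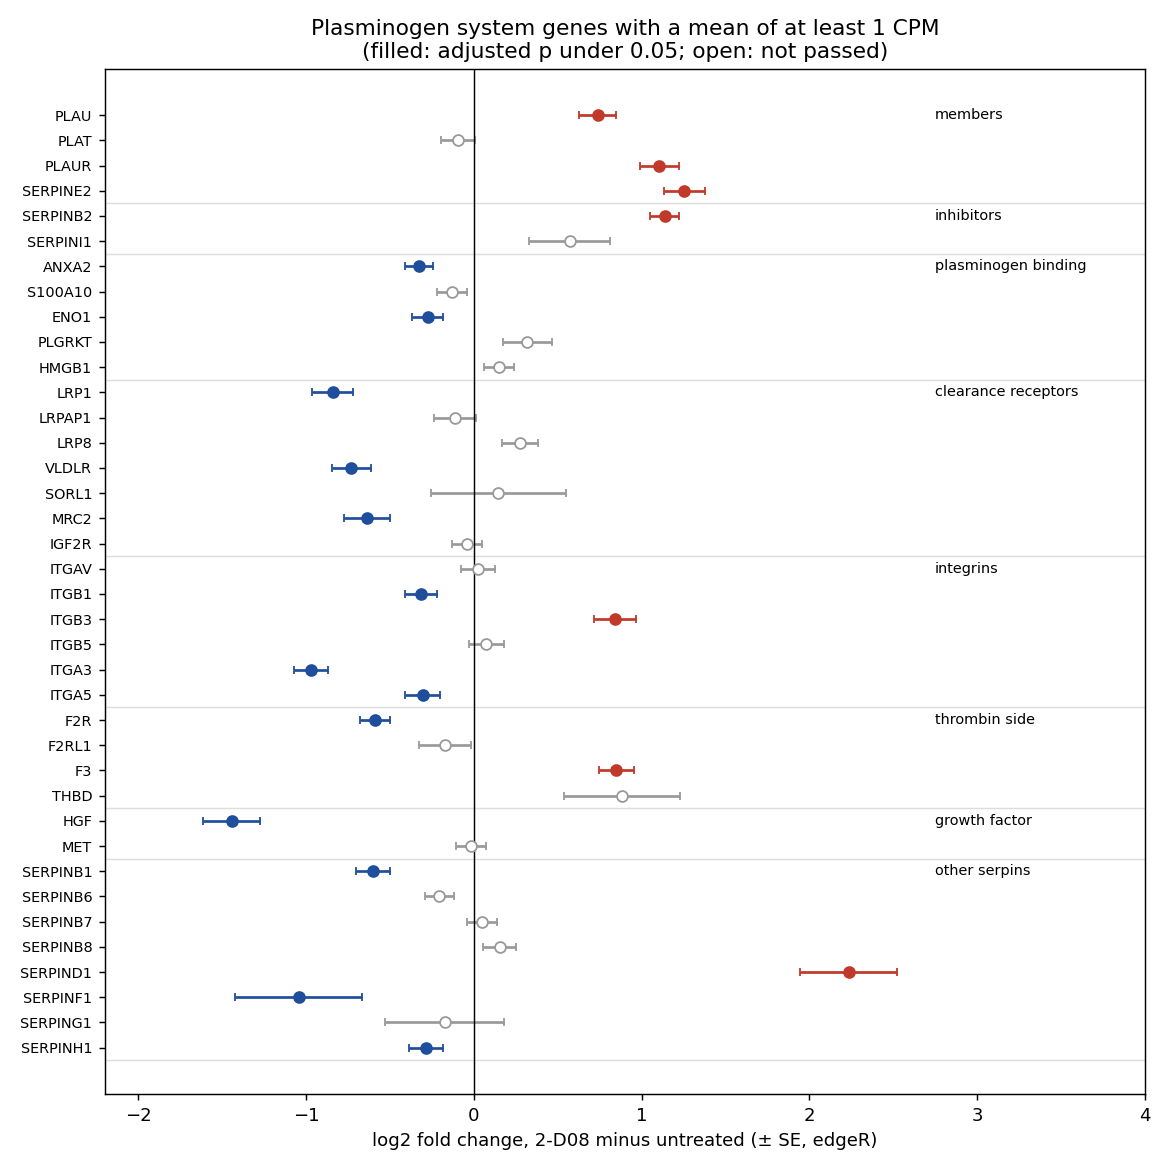
Log2 fold change (exposed minus untreated, ± SE from edgeR) of the 4 genes and of the listed genes averaging 1 CPM or more, grouped by role. Filled points passed an adjusted p of 0.05, red higher and blue lower, and open points did not pass. The rises of PLAUR (1.11), SERPINE2 (1.25) and SERPINB2 (1.14) stand beside falls of LRP1 (-0.84) and VLDLR (-0.73).

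Of 18 other serpin genes 10 were tested, 2 higher and 3 lower, with a median log2 fold change of -0.06. Of all genes tested 17.1% were higher and 16.9% lower, with a median of -0.003. SERPINB2, SERPINI1, SERPINA5 and SERPINF2 are in both lists, and the last 2 had too few reads to be tested. SERPIND1, which encodes heparin cofactor II, a thrombin inhibitor, rose from 1.11 ± 0.232 to 5.08 ± 0.144 CPM (SD, n = 2 each; log2 difference 2.23 ± 0.29 SE, adjusted p = 7.03e-05 by edgeR). SERPINB1, an inhibitor of neutrophil proteases, went from 82.2 ± 2.18 to 54.0 ± 5.09 CPM (-0.60 ± 0.10, adjusted p = 0.000555 by edgeR). SERPINF1 (-1.05) and the collagen chaperone gene SERPINH1 (-0.28) were called lower near the threshold (adjusted p of 0.0454 and 0.0438 by edgeR). Both lost their calls without untreated replicate 1 (-0.76 and -0.21), without untreated replicate 2 (-1.24 and -0.35) and without exposed replicate 2 (-0.88 and -0.20). They also lost them with library size only, with DESeq2, on both TPM scales and with the even-count libraries as a block. In all, SERPINF1 lost its call in 11 of 16 alternatives and SERPINH1 in 8 of 17. Of all 18, SERPINI2 was the 1 at 0 reads in every library. The serpin count of 5 was 3 without untreated replicate 1 and 8 without exposed replicate 1.

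Profiles over the 4 libraries were compared after centring log2 CPM (0.5 added) for 10366 other genes, and likeness was the root mean square difference. MAP2K3 (0.0204), RAB5IF (0.0232) and TRMT61A (0.028) were nearest to PLAU. NFKBIB (0.0147), SLC25A25 (0.0321) and OAS3 (0.0505) were nearest to PLAUR. APLN (0.0202), BRI3BP (0.0241) and LRRC38 (0.0371) were nearest to SERPINE2, and ATP5F1B (0.0093), ALKBH2 (0.00957) and FOXF1 (0.00979) to PLAT. With 4 libraries this is a description only.

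Markers were checked against the label, and counts of called markers are read against 17.1% higher and 16.9% lower over all genes. Of 8 smooth muscle markers DES was at 0 in all libraries and MYOCD had at most 2 reads, and the list summed to 712 to 749 CPM untreated and 484 to 562 CPM exposed, most of it CALD1. Of 6 tested, 4 were lower. Macrophages also express PLAUR. The 6 immune markers summed to 62.6 to 67.3 CPM untreated and 98.9 to 100.2 CPM exposed, most of it CD68 (62.9 and 93.0 CPM on average). Of 3 tested, 2 were higher (CD68 and LCP1), and CD14 did not pass (log2 fold change -0.63). PTPRC, the defining marker of blood cells, had 4 to 16 reads per library. The 5 endothelial markers summed to 1.28 to 1.57 and 2.06 to 2.07 CPM. Of 2 tested, PECAM1 was called higher, at 14 and 2 reads untreated and 18 and 40 exposed. CDH5, the other one tested, did not pass (log2 fold change -1.10). Epithelial markers summed to 232 to 261 and 203 to 237 CPM, with 2 of 4 lower, and fibroblast markers to 991 to 1082 and 375 to 428 CPM, with 1 of 5 higher and 3 lower. The part of these shifts in the results above was not tested.

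**Figure D4:**
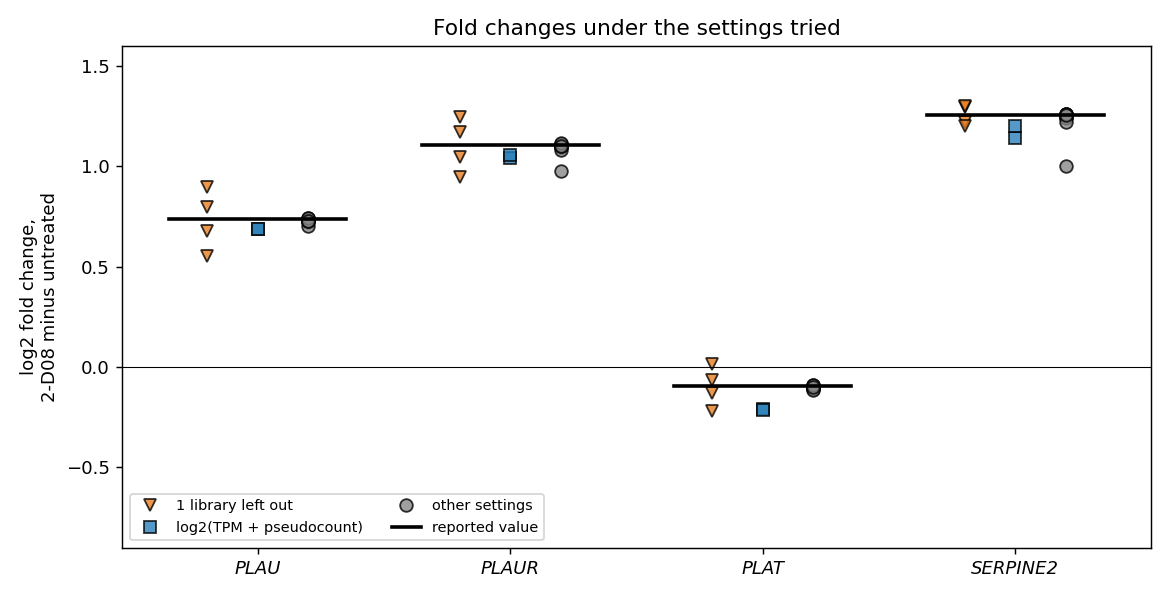
Log2 fold change of the 4 genes (exposed minus untreated) under the settings tried. Black lines are the reported values, triangles fits without 1 library, squares log2(TPM + pseudocount) and circles other settings. PLAU stays between 0.55 and 0.90, and PLAT crosses 0 when exposed replicate 2 is left out (0.01).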

How the data were processed

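Total RNA of SK-LMS-1 cells was freed of ribosomal RNA with a Roche kit, per the labels' protocols. The submitters' processing notes name STAR 2.7.8a, cutadapt 3.4, GRCh38 and DESeq2. Not given in the sources used here are the counting tool and the annotation. The authors deposited whole-number read counts, TPM values, and a table named normalised counts whose deposited values lie on a log2-like scale and were used only as an alternative. Counts were filtered (filterByExpr, minimum count 10), scaled by TMM and tested with edgeR 4.0.16 in R 4.3.3 (quasi-likelihood, robust, two-sided, Benjamini-Hochberg over all 12906 tested genes), and SEs derive from its F statistic. The edgeR fit was tried on simulated counts with a common dispersion and no excess of even counts, a simpler setting than these data.

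The 4 genes and the lists were chosen with earlier results of these data known. From both lists, called genes averaging 1 CPM or more are named, beside genes without reads and the 3 nearest profiles per gene. Not every gene of the system is reported here. Alternatives used RLE factors, no scaling factors, no low-count filter, a minimum mean of 5 CPM, DESeq2 1.42.0, limma 3.58.1 (voom, TPM, transformed values), a replicate block, thinned or halved counts, and leaving out each library. Positions are from GENCODE release 29, upstream sequences from RefSeq.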

Additional observations from a re-analysis of the deposited data

How the results depend on the processing

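PLAU, PLAUR and SERPINE2 stayed higher in all 17 alternatives run, at 0.55 to 0.90, 0.95 to 1.25 and 1.00 to 1.30 on the log2 scale. They passed the threshold in every alternative that kept 2 libraries per group. PLAU passed only narrowly with limma on log2(TPM + 1) (adjusted p = 0.0473) and log2(TPM + 0.1) (0.0452). A fit without 1 library left 1 in that group, so its within-group spread came from the other group alone. For PLAT, leaving out 1 library gave -0.22 to 0.01, and the sign turned without exposed replicate 2 (0.013). Genes called were 4376, and 1598 and 1608 on log2(TPM + 1) and log2(TPM + 0.1); leaving out 1 library gave 1866 to 6077. The plasminogen system count of 14 was 8 on each TPM scale and 8 to 16 without a library. The serpin count of 5 was 3 with library size only, 3 with a minimum mean of 5 CPM, 3 with DESeq2, 3 on each TPM scale, 3 with even-count libraries as a block (chosen after seeing the data) and 3 to 8 without a library. Fewer genes were tested with the CPM minimum; otherwise the cause was not tested. Of 18 listed genes named as called, 9 stayed so in every alternative that gave them a value and 0 changed sign; LRP2, SERPIND1 and SERPINF1 had no value under the CPM minimum. Same-numbered libraries are not stated to be paired; their deviations correlated at 0.21 over 12906 genes. With the replicate block PLAU was at 0.73, PLAUR at 1.11, PLAT at -0.10 and SERPINE2 at 1.26, with 6239 genes, 18 system genes (8 higher) and 7 serpin genes called. With 2 libraries per group, changes as small as that of PLAT can escape the test.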
